A study of Mus musculus with 20 samples.

Results

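The miR-99a, let-7c-1 and miR-125b-2 cluster is a group of 3 mouse miRNA hairpins on chromosome 16 that lie inside the long non-coding gene Mir99ahg. Its 5 members followed here are miR-99a-5p, miR-99a-3p, let-7c-3p, miR-125b-5p and miR-125b-2-3p, out of 1226 miRNAs detected in the series. Their reads were chosen by sequence, while the members themselves were chosen with earlier results of these data known. Every distinct read (a tag) of 18 to 26 nt that matched the hairpins exactly was assigned to the arm it came from, and for let-7c-1 only the 3p arm was used, because let-7c-5p is also made from a second locus, Mirlet7c-2. This gave 123 distinct tags with 344227 reads. Of these, 306263 reads began within 2 nt of the main start of their arm, and these are the reads behind the levels below. All 5 members passed the filter on low values, at least 5 CPM (miRNA reads scaled per M, where M stands for 1e+06) in at least 2 libraries, which kept 377 miRNAs for testing. miR-99a-3p and let-7c-3p reached 5 CPM in dendritic cells only, so that a difference between the cell types was a condition of their being tested.

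Small RNAs were sequenced from bone marrow cultures of 2 cell types and 2 genotypes, each in 5 stimulus states, with a single library for every condition (20 in all). Macrophages (MAC) were differentiated with M-CSF hybridoma supernatant and dendritic cells (DC) with GM-CSF hybridoma supernatant, from mice of 8 to 12 weeks. Knockout (KO) cells came from mir-155-/- mice of the strain B6.Cg-Mir155tm1.1Rsky/J, and wild-type (WT) cells from C57BL/6 mice. Cells were given LPS, oxLDL, eLDL or LDL, or were left without stimulus, and DC received 200 ng/ml LPS overnight at day 8 to 9. The sources used here give neither the lipoprotein doses nor the LPS dose for MAC, and do not say which libraries share a mouse or a culture. With 1 library a condition, a stimulus effect rests on 2 matched pairs (KO and WT), a genotype effect on 5 and the cell type difference on 10. These were tested against 1 shared spread, the departures of KO and WT cells of a cell type from parallel responses to the stimuli. The p-values measure only that spread, and not how the cell type difference varied over its 10 pairs.

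Members of this cluster are made from precursor hairpins that Dicer cuts into a 5p and a 3p strand, of which mostly a single strand is kept in Argonaute. The kept strand finds target mRNAs with its seed, the bases that follow the first base of the 5′ end. miR-99a-5p is known to repress mTOR, miR-125b-5p is known in mice as a regulator of blood stem cells and of TNF and IRF4 in macrophages, and let-7 miRNAs restrain growth and accompany differentiation.

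In the annotation (GRCm38, GENCODE M21, all on the + strand) Mir99a lies at chr16:77598936-77599000, Mirlet7c-1 at chr16:77599657-77599750 and Mir125b-2 at chr16:77646273-77646343. The first 2 are 656 bases apart, and 46522 bases separate Mirlet7c-1 from Mir125b-2. Of the 17 annotated transcripts of Mir99ahg (chr16:77236317-77773427), 4 span the hairpins, and in each of the 4 all 3 hairpins are intronic. The mature members are shown because their seeds decide which miRNAs they resemble. The sequences are RefSeq's (GRCm38.p6), 5′ to 3′, with the seed, bases 2 to 8, in capitals.
miR-99a-5p: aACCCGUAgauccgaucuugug
miR-99a-3p: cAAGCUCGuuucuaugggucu
let-7c-3p: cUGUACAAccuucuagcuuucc
miR-125b-5p: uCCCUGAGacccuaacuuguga
miR-125b-2-3p: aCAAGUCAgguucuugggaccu
In RefSeq's mouse miRNAs the seed of miR-99a-5p is shared with miR-100-5p and miR-99b-5p, and that of miR-99a-3p with miR-99b-3p. The seed of miR-125b-5p is shared with 4 other mouse miRNAs, among them miR-125a-5p. The seeds of let-7c-3p and miR-125b-2-3p occur in no other entry.

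The nearest relatives of the cluster are 2 paralogous groups with the same order of families, miR-100, let-7a-2 and miR-125b-1 on chromosome 9, and miR-99b, let-7e and miR-125a. Some of their arms are shown to make clear how reads of the loci were told apart. The last, let-7c-2-3p, belongs to neither group but to the second let-7c locus, Mirlet7c-2 on chromosome 15.
miR-100-5p: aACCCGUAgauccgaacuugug
miR-99b-5p: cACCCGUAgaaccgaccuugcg
miR-125b-1-3p: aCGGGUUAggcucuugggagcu
let-7c-2-3p: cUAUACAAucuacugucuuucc
Counted from 1 at the 5′ end, miR-99a-5p and miR-100-5p differ only by U16A. miR-125b-2-3p differs from miR-125b-1-3p at 5 positions (A3G, A4G, C7U, U11C and C20G), of which A3G, A4G and C7U lie in the seed. let-7c-3p differs from let-7c-2-3p at 5 positions too, and G3A is the seed difference. miR-125b-5p is identical at Mir125b-1 and Mir125b-2, and its level is therefore the sum of both loci.

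The 2 hairpins whose precursors are in the RefSeq table used here show how far apart the arms lie, with the arms in capitals.
Mir99a: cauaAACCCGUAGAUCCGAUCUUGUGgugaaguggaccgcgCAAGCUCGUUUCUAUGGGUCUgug
Mirlet7c-1: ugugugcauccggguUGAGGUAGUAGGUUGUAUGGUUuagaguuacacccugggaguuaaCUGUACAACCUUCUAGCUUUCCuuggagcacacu

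Library depth ran from 10.25 M to 22.8 M reads, of which 5.07 M to 11.78 M were assigned to miRNAs, so that 3 reads, the most that a count of 0 allows at 95%, correspond to 0.255 to 0.592 CPM. miR-155-5p, the deleted miRNA, had 33 to 45 reads in KO MAC and 2 to 7 in KO DC, against 38431 to 317578 in WT MAC and 892 to 84426 in WT DC. The blood-lineage miRNAs miR-142a and miR-223 (4 of 4 arms detected) summed to 21697 to 32469 CPM in MAC and 17171 to 26435 CPM in DC, and no DC or MAC protein marker was measured. Intervals and floors cover counting error only, because PCR copies were not marked.

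In macrophages all 5 members were rare, at 9.74 CPM or less in every library, and miR-99a-3p and let-7c-3p were near the limit of detection. In dendritic cells they were well-measured miRNAs. miR-99a-5p, the most abundant of them, had a median of 6.01 CPM in the 10 MAC libraries (2.63 to 8.91) and of 1797 CPM in the 10 DC libraries (1292 to 2808). miR-125b-5p had a median of 5.38 CPM in MAC (2.95 to 9.74) and of 1316 CPM in DC (823 to 1519). The highest MAC library stayed far below the lowest DC library for both, and no stimulus or genotype closed the gap.

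The 3p arms showed the same separation at lower levels. miR-125b-2-3p ranged from 0 to 5.73 CPM in MAC with a median of 2.42, and from 588 to 998 CPM in DC with a median of 861. miR-99a-3p was read 19 times in all MAC libraries together, with 0 reads in 6 of them and at most 9 in a library, whereas DC held 95.3 to 193 CPM with a median of 157. let-7c-3p was read 14 times in MAC, 7 of these in KO and 6 in WT cells with LDL and 1 in WT cells without stimulus. In DC let-7c-3p ranged from 4.88 to 74.7 CPM with a median of 46.3. By mean level in DC the order was miR-99a-5p, miR-125b-5p, miR-125b-2-3p, miR-99a-3p and let-7c-3p, which ranked 45, 55, 65, 116 and 165 among all miRNAs. The ranges of miR-99a-5p and miR-125b-5p overlapped, as did those of miR-125b-5p and miR-125b-2-3p, whereas miR-99a-3p and let-7c-3p overlapped with no other member in DC.

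**Figure D1:**
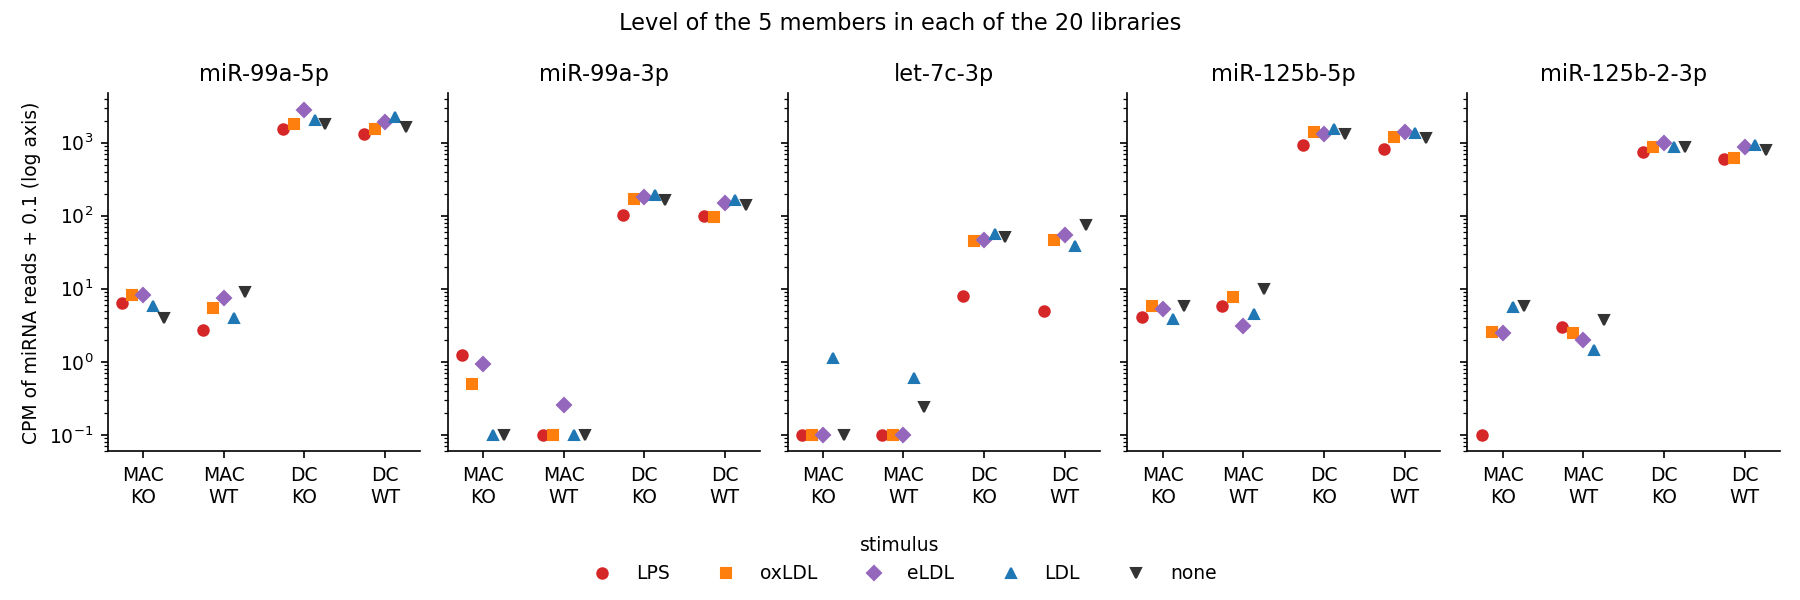
Level of each member in the 20 libraries, as CPM of miRNA reads plus 0.1 on a log axis, by culture (MAC KO, MAC WT, DC KO, DC WT) with 1 point a library. All MAC points lie below all DC points of the same member, libraries with 0 reads stand at 0.1, and the 2 lowest DC points of let-7c-3p are the LPS libraries.

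Pooled over the libraries, DC held 313 times the MAC level of miR-99a-5p (95% interval 286 to 343), 603 times that of miR-99a-3p (386 to 1001) and 230 times that of let-7c-3p (137 to 420). The ratio was 221 for miR-125b-5p (201 to 243) and 287 for miR-125b-2-3p (252 to 328). The fitted differences, MAC minus DC over 10 pairs, were -8.19 ± 0.19 for miR-99a-5p, -7.75 ± 0.12 for miR-125b-5p and -8.19 ± 0.31 for miR-125b-2-3p on the log2 scale (± SE), with adjusted p of 4.8e-14, 2.0e-18 and 8.1e-10 (edgeR quasi-likelihood test, Benjamini-Hochberg). For miR-99a-3p and let-7c-3p the fitted values of -11.11 and -9.43 depend on how libraries with 0 reads are treated, and the pooled ratios are the better measure. All were lower in MAC in 10 of 10 pairs. miR-99a-5p, miR-125b-5p and miR-125b-2-3p, which passed the filter in MAC as well, had ranks 3, 5 and 4 from the lowest among the 377 tested miRNAs, of which 37.7% were called lower and 79.6% were called in either direction. No rank or call is read for miR-99a-3p and let-7c-3p, which passed it through DC alone. The ranks of the other members are descriptive, because the members were chosen with earlier results of these data known. In bulk samples, fewer cells of a type and less RNA per cell cannot be told apart.

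The MAC levels were 0.166% to 0.452% of the DC levels. For scale, miR-155-5p in KO cells came to 0.0174% of its WT level in MAC and to 0.0222% in DC. Whether the MAC reads came from macrophages, from other cells of the culture or from other libraries was not tested. Among the lists of markers of other cell types, the erythroid list (4 of 4 detected, nearly all of it miR-486-5p) summed to 414 to 723 CPM in MAC and 1235 to 1996 CPM in DC, while its miR-451a had 0.117 to 1.95 and 0 to 6.23 CPM. The neural list (2 of 3 detected, nearly all miR-9-5p) summed to 5096 to 18526 CPM in MAC and 4.45 to 18.9 CPM in DC, the lymphoid list (2 of 2) to 63.9 to 168 and 6.23 to 24.2, and the liver and serum list (3 of 3) to 501 to 1037 and 207 to 289. The stromal and mesenchymal list (8 of 11) overlapped, with 30.5 to 530 CPM in MAC and 33.2 to 301 CPM in DC. Its members went both ways, with 0.212 to 9.6 CPM in MAC and 19.7 to 128 CPM in DC for miR-199a-3p, and 29.6 to 247 CPM in MAC and 5.57 to 16.4 CPM in DC for miR-10b-5p. miR-145a-3p and miR-218-5p were at 0 in all MAC libraries, and at 0 in 8 and 7 of the 10 DC libraries. The early progenitor (3 of 3), epithelial (7 of 7) and endothelial and megakaryocyte (2 of 2) lists overlapped between the cell types. The part of other cells in the difference was not tested.

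The related clusters were lower in MAC as well. miR-100-5p had 0 to 1.31 CPM in MAC and 7.96 to 49.2 CPM in DC, a fitted difference of -6.50 ± 0.48. Like miR-125b-1-3p, which had at most 0.696 CPM in MAC, it reached 5 CPM in DC only. In the cluster of miR-99b, let-7e and miR-125a, both arms of miR-99b and of miR-125a and let-7e-5p were called lower in MAC, beside 37.7% of all tested miRNAs. The remaining tested arm, let-7e-3p, had at most 3.05 CPM in MAC and passed the filter through DC alone. No call is read for arms that passed through DC alone. Its leading arms differed by -3.20 (miR-99b-5p), -4.28 (let-7e-5p) and -4.37 (miR-125a-5p), and miR-99b-5p still had a pooled 3417 CPM in MAC. The difference between the clusters was not tested. In the chromosome 9 group 2 of 4 arms were tested, let-7a-2-3p had 6 reads in 1 DC library and 0 in MAC, and miR-100-3p had 0 in all 20 libraries.

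**Figure D2:**
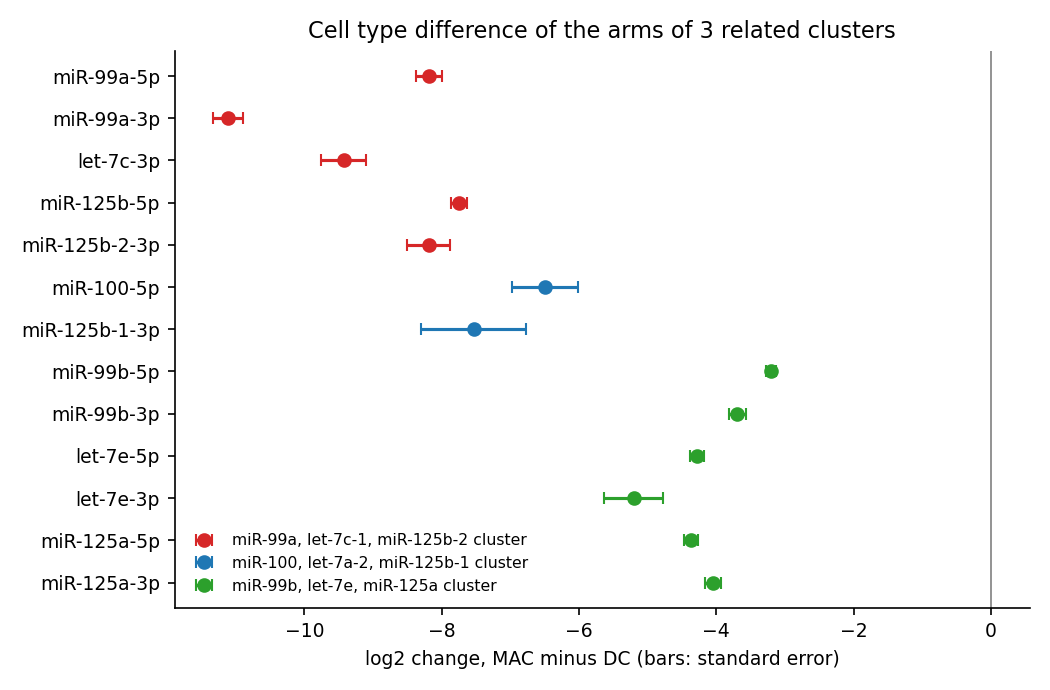
Fitted log2 change, MAC minus DC, for the tested arms of the 3 related clusters, with standard errors as bars. miR-99a-3p, let-7c-3p, let-7e-3p and the chromosome 9 arms reached 5 CPM in DC only. The members lie between -11.11 and -7.75, the chromosome 9 arms at -6.50 and -7.53, and the arms with miR-99b between -5.20 and -3.20.

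Some tags fit only 1 of the duplicated loci. They show the locus of those tags, and not that of the shared 5p arms. The 3p arm separates the miR-125b loci, and in DC 60918 reads came from Mir125b-2 and 409 from Mir125b-1, so that Mir125b-2 made up 98.1% to 99.9% of the 3p reads of each DC library. In MAC the reads were 225 and 8. For let-7c, a 5p variant that begins 1 nt earlier contains a base that lies before the mature sequence and differs between the loci.
let-7c-5p, 1 nt earlier: tTGAGGTAgtaggttgtatggt
This tag (bases 2 to 8 in capitals, letters as in the files) matches Mirlet7c-1 and not Mirlet7c-2. Tags with this start, of any length, had 0 to 8 reads in MAC libraries and 727 to 2681 reads in DC libraries. The tag shown held 7779 of their 17056 DC reads. Whether shorter tags with this start also fit other let-7 hairpins was not checked. Tags with this start were 0% to 0.0225% of let-7c-5p in MAC and 0.554% to 0.722% in DC, with no overlap. let-7c-5p itself, the sum of both loci and the 6th most abundant miRNA of DC, had 3782 to 6359 CPM in MAC and 25892 to 47918 CPM in DC, a difference of -2.60 ± 0.11 (adjusted p 1.0e-11, edgeR).

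With LPS 1 of the 5 members was called in DC, let-7c-3p, and it was lower. It had 7.94 CPM in KO and 4.88 CPM in WT cells with LPS, against 51.6 CPM in KO and 74.7 CPM in WT cells without stimulus. In reads these are 84 and 43 with LPS and 431 and 515 without. The LPS level was 0.154 times that of the unstimulated KO cells (95% counting interval 0.12 to 0.195) and 0.0654 times that of the unstimulated WT cells (0.0468 to 0.0894). The fitted change was -2.89 ± 0.38 on the log2 scale (adjusted p 0.00012, edgeR quasi-likelihood test), lower in 2 of 2 pairs, and it is the 8th lowest of the 377 LPS effects in DC, of which 22.3% were called and 11.9% were called lower.

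With lipoproteins let-7c-3p lay between 38.2 and 56.2 CPM. With oxLDL let-7c-3p had 45.1 CPM in KO and 45.7 CPM in WT cells, with eLDL 46.9 and 53.7 CPM, and with LDL 56.2 and 38.2 CPM. The 2 LPS libraries thus lay below the other 8, which spanned 38.2 to 74.7 CPM. Set against the lipoproteins, the LPS change was -2.63 ± 0.34 (adjusted p 7.7e-05, edgeR, with 25.5% of all miRNAs called and 12.5% called lower), a comparison that shares the LPS libraries with the one above. In the same comparison miR-125b-5p had -0.36 ± 0.16 (adjusted p 0.13, edgeR) without a call, and was called at -0.63 with total counts and at -0.34 in a fit of the DC libraries alone. miR-99a-3p had -0.35 ± 0.19 and was called at -0.62 with total counts.

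The other members of the cluster were not called with LPS in DC. miR-99a-5p had 1519 CPM in KO and 1292 CPM in WT cells with LPS, against 1810 CPM in KO and 1633 CPM in WT cells without stimulus. miR-99a-3p had 102 and 99.5 CPM in KO and WT cells with LPS and 164 and 139.5 CPM without stimulus. miR-125b-5p had 931 and 823 CPM in KO and WT cells with LPS and 1314 and 1153 CPM without. On the CPM scale all 3, and miR-125b-2-3p with 746 and 588 CPM against 862 and 786 CPM, stood lower with LPS in both genotypes. CPM rests on the total of miRNA reads, and scaling the fit by these totals in place of TMM moved the median LPS effect of all tested miRNAs by -0.42.

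After TMM scaling the changes were 0.12 ± 0.30 for miR-99a-5p, -0.15 ± 0.23 for miR-99a-3p, -0.07 ± 0.19 for miR-125b-5p and 0.10 ± 0.47 for miR-125b-2-3p (adjusted p 0.71 to 0.93, edgeR). Their 95% intervals were -0.52 to 0.76, -0.64 to 0.33, -0.49 to 0.34, and -0.95 to 1.16. With total counts miR-125b-5p was called lower at -0.49, and the signs for miR-99a-5p and miR-125b-2-3p turned negative, at -0.295 and -0.312 without a call. Over the 5 members the median LPS effect was -0.07, beside -0.05 over all 377 miRNAs.

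Other products of the let-7c-1 hairpin and of related loci were read beside let-7c-3p. The let-7c-5p variant that begins 1 nt earlier had 203 CPM in KO and 189 CPM in WT cells with LPS, inside the range of the other 8 DC libraries (143 to 314 CPM). The ratio of let-7c-3p reads to reads of this variant was 0.0392 in KO and 0.0258 in WT cells with LPS, against 0.1455 to 0.487 in the other 8 DC libraries. Per read of miR-99a-3p, let-7c-3p had 0.0776 and 0.0491 reads in KO and WT cells with LPS, against 0.231 to 0.535 in the others. let-7c-5p as a whole had 31279 and 32520 CPM in KO and WT cells with LPS and 41484 and 27573 CPM without, an effect of 0.32 ± 0.23 (adjusted p 0.38, edgeR). Of the 8 let-7 and miR-98 3p arms tested, let-7c-3p was the 1 called with LPS in DC, where 22.3% of all miRNAs were called. The mean DC levels of the other arms ran from 2.65 (let-7b-3p) to 1420 CPM (let-7d-3p), and for the rare arms the lack of a call says little. The others ranged from -0.80 ± 1.13 (let-7b-3p) to 0.53 ± 0.31 (let-7i-3p), and let-7a-1-3p, which shares its reads with let-7c-2-3p, had -0.57 ± 0.31. The difference between let-7c-3p and these arms was not tested.

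**Figure D3:**
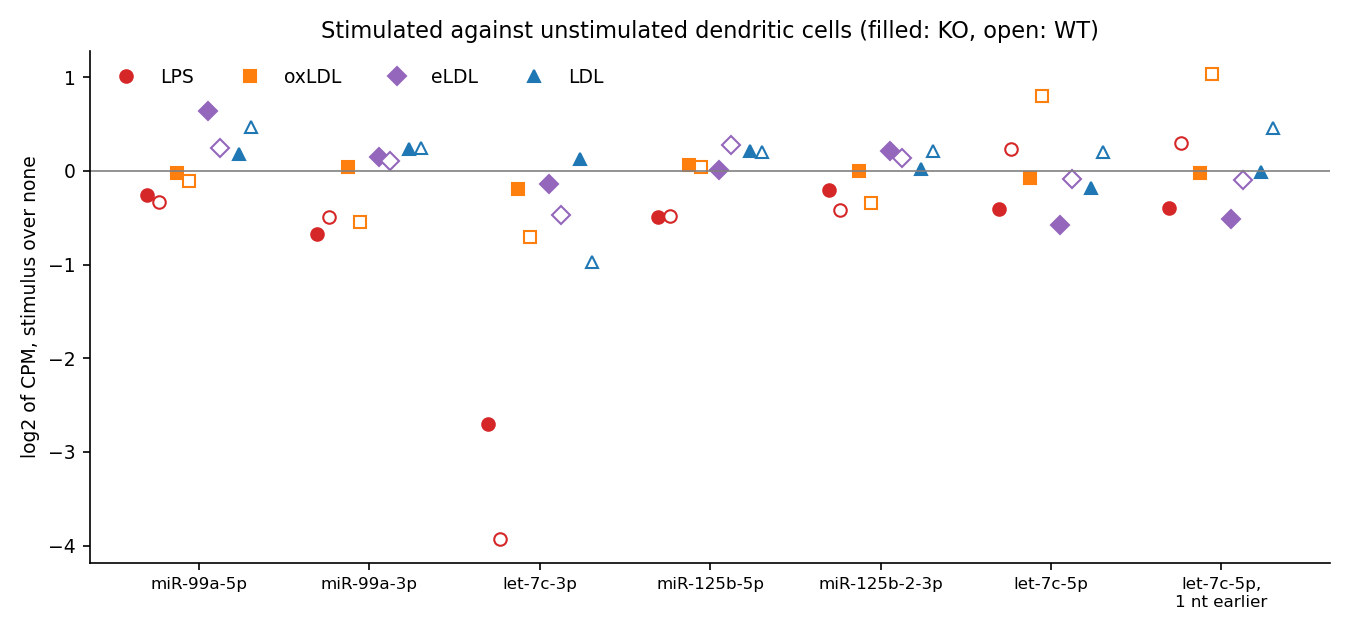
log2 of the CPM ratio of each stimulated DC library to the unstimulated DC library of its genotype, for the members, let-7c-5p and the let-7c-5p variant of Mirlet7c-1, with KO filled and WT open. With LPS let-7c-3p stands at ratios of 0.154 in KO and 0.0654 in WT cells, and every other point lies nearer to 0 on the log axis.

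Other cell-type lists moved with LPS in DC as follows. The early progenitor list, nearly all miR-10a-5p, summed to 38100 to 38320 CPM in the LPS libraries and 46118 to 62926 CPM in the other 8 DC libraries. The neural list summed to 14.6 to 18.9 CPM with LPS and 4.45 to 11.4 CPM in the others. The erythroid list had 1235 to 1467 CPM and 1417 to 1996 CPM, and the stromal list 91.7 to 301 CPM and 33.2 to 149 CPM, both with overlap. The endothelial, lymphoid, epithelial, and liver and serum lists overlapped too. Their part in the let-7c-3p result was not tested.

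The LPS response of let-7c-3p was larger in WT than in KO cells by read counts, yet the difference was not called. KO minus WT, over both cell types, it was 1.15 ± 0.72 (adjusted p 0.95, edgeR), with 0 of 377 miRNAs called by edgeR (0%), 0 by DESeq2 and 22 at an unadjusted p under 0.05. The MAC libraries with LPS and without stimulus held 1 read of let-7c-3p in all. For the other members the differences ran from -0.61 ± 0.94 (miR-125b-2-3p) to 0.73 ± 0.48 (miR-99a-5p). For miR-125b-2-3p the value was -8.30 without the WT DC library with LPS and -8.29 without the KO DC library with LPS, and it was then called (adjusted p 0.047 and 0.048, edgeR). Without either, 1 DC library with LPS is left, beside the KO MAC library with LPS at 0 exactly matched reads.

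No member was called with lipoproteins in DC. The mean effect of oxLDL, eLDL and LDL ran from -0.26 ± 0.28 (let-7c-3p) to 0.39 ± 0.25 (miR-99a-5p), with adjusted p of 0.52 to 0.93 (edgeR, with 2 of 377 miRNAs or 0.531% called, and 45 at an unadjusted p under 0.05). The DC library with the most miR-99a-5p was that of KO cells with eLDL, at 2808 CPM, and WT cells with eLDL had 1928 CPM and with LDL 2263 CPM. Unstimulated KO and WT cells had 1810 and 1633 CPM. On the CPM scale cells with oxLDL, at 1784 and 1513 CPM, lay below both eLDL values and below their own unstimulated library. The TMM factors were 1.003 in KO and 1.008 in WT cells with oxLDL, and 1.102 and 1.24 without stimulus. Scaled by these, oxLDL stands above the unstimulated library in both genotypes, so that no direction is read from the CPM values.

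Loss of miR-155 was not followed by a called change of any member in DC, where 8.75% of all miRNAs were called. miR-99a-3p came nearest. It had 102, 168, 182, 193 and 164 CPM in KO cells (in the order LPS, oxLDL, eLDL, LDL and none) and 99.5, 95.3, 150, 166 and 139.5 CPM in WT cells. It was higher in KO in 5 of 5 pairs, by 1.03 to 1.76 times, with a fitted difference of 0.44 ± 0.14 (95% interval 0.13 to 0.74, adjusted p 0.082, edgeR). The call was made with DESeq2 at 0.41 and in a fit of the DC libraries alone at 0.38.

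On the CPM scale miR-99a-5p, miR-125b-5p and miR-125b-2-3p were each higher in KO DC in 4 of 5 pairs, and let-7c-3p in 2 of 5. These counts change with TMM scaling, on which the fit rests. The fitted differences of these 4 were 0.32 ± 0.19, 0.26 ± 0.12, 0.34 ± 0.30 and 0.20 ± 0.22, with adjusted p of 0.34, 0.23, 0.58 and 0.67 (edgeR). The median of the 5 members was 0.32 beside 0.05 over all miRNAs, and miR-125b-2-3p was called at 0.28 in the fit of the DC libraries alone. The chromosome 9 arms stood the other way, with -1.17 ± 0.42 for miR-100-5p and -1.25 ± 0.53 for miR-125b-1-3p (adjusted p 0.12 and 0.18, edgeR), also without a call.

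**Figure D4:**
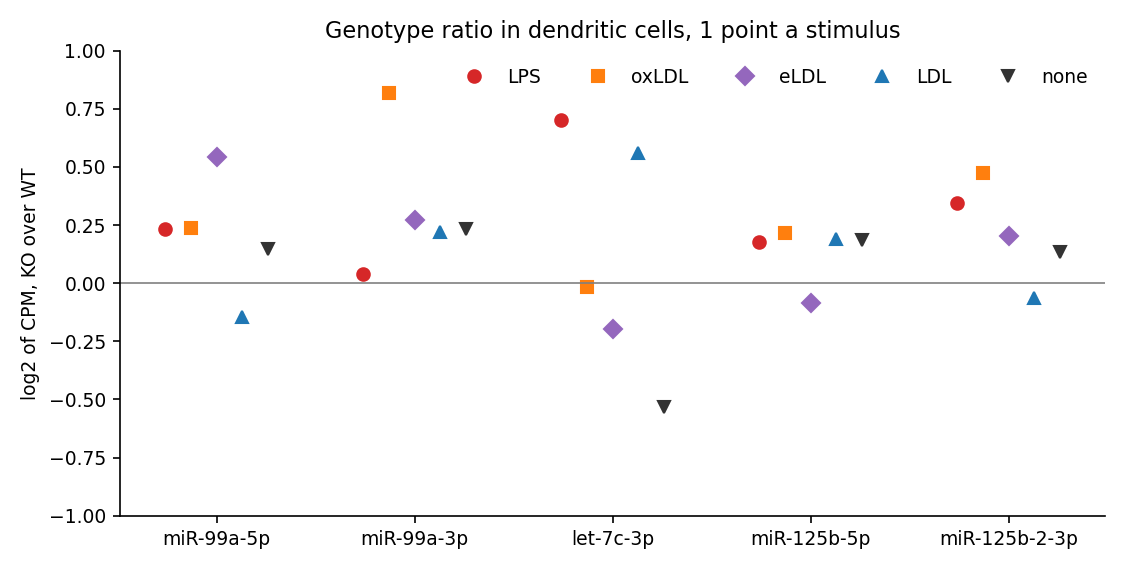
log2 of the CPM ratio, KO over WT, in DC for the 5 members, with 1 point for each stimulus. All 5 points of miR-99a-3p lie above 0 (ratios of 1.03 to 1.76), and those of let-7c-3p lie on both sides (0.692 to 1.63).

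In MAC the members had at most 70 reads in a library, and what follows is given in reads. With LPS miR-99a-5p had 50 reads in KO and 21 in WT cells, against 36 in KO and 64 in WT cells without stimulus. miR-125b-5p had 31 and 46 reads with LPS and 53 and 70 without, and miR-125b-2-3p 0 and 23 with LPS and 54 and 26 without. None of these 3 was called with LPS, where 19.6% of all miRNAs were called. miR-125b-5p, at -0.59 ± 0.27, was called in 5 alternatives, at -1.03 with tags of 20 to 24 nt, -0.69 with DESeq2, -0.70 without a filter, and -0.70 and -0.62 without the WT or the KO library with eLDL. miR-125b-2-3p, at -1.60 ± 0.82, was called at -1.69 without a filter, and at -8.59 without the WT library with LPS, which leaves the KO library with its 0 reads. That 0 counts exact matches only. The same library held 15 reads of the arm with added bases (3 with A, 9 with U and 3 with others), which are not in the levels. Without the unstimulated KO library miR-99a-5p was called at -1.27.

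A few MAC results passed the test on small counts. Calls of higher levels were made for 13.3% of all miRNAs with LPS, and miR-99a-3p was among them on 9 reads in KO cells, against 0 reads in the other LPS library and in both unstimulated libraries (adjusted p 0.0038, edgeR), and the call was lost without either KO library of this comparison. It was called higher in KO than in WT MAC on 18 reads against 1 (adjusted p 0.0014, edgeR, with 24.1% of miRNAs called and 10.3% called higher), and this call was lost without the KO or the WT library with LPS. It was called higher with LPS than with lipoproteins as well, on 9 reads in 2 libraries against 10 in 6 (adjusted p 0.022, edgeR, with 13.3% called and 8.49% called higher). This call was lost with DESeq2, without a filter and without any 1 of the 4 stimulated KO libraries. miR-125b-5p was called lower with lipoproteins, at -0.72 ± 0.21 (adjusted p 0.033, edgeR, with 12.5% called and 6.37% called lower). It had 43, 37 and 26 reads in KO and 64, 19 and 52 reads in WT cells with oxLDL, eLDL and LDL, against 53 and 70 reads without stimulus. In CPM these were 5.63, 5.14 and 3.76 in KO and 7.51, 2.95 and 4.41 in WT cells, against 5.63 and 9.74 CPM without stimulus. Without the unstimulated WT library the value was -0.39 and no longer called, and 5 other alternatives ended the call too. Differences between the cell types in these effects were called for 12.5% of miRNAs with LPS, 6.9% with lipoproteins and 15.6% between the genotypes, and for miR-99a-3p (LPS and genotype) and miR-125b-5p (lipoproteins and genotype) among the members.

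The ends of the members were read in DC, where counts allowed it. In MAC only 9 of 50 values (a member in a library) reached 50 reads, so that shares of variants could not be tested between the cell types library by library. Frequent 5′ variants were found in 2 arms. Their leading tags are given as in the files, with bases 2 to 8 in capitals, because a shifted start shifts the seed.
miR-125b-2-3p, main start: aCAAGTCAggttcttgggac
miR-125b-2-3p, 2 nt earlier: tCACAAGTcaggttcttgggac
miR-99a-5p, main start: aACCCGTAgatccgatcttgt
miR-99a-5p, 4 nt later: cGTAGATCcgatcttgtg
Tags of miR-125b-2-3p that begin 2 nt earlier made up 19.1% to 25.2% of the arm in the 10 DC libraries and 19.9% of its 241 MAC reads (95% interval 15.1% to 25.5%). Tags of miR-99a-5p that begin 4 nt later made up 9.86% to 16.4% in DC and 21.5% of 648 MAC reads (18.4% to 24.8%). These shorter tags lie outside the levels given above. miR-125b-5p began 1 nt later in 6.62% to 10.5% of its DC reads, and in 2.64% of 455 MAC reads (1.37% to 4.56%). The MAC shares are pooled over libraries, their intervals cover counting error only, and no difference from DC was tested. The starts of miR-99a-3p and let-7c-3p were more uniform, with 92.5% to 97.4% and 80% to 97.0% of DC reads at the main start. For let-7c-3p the lowest shares, 81.6% in KO and 80% in WT cells, were those of the LPS libraries, of 87 and 45 reads.

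The 3′ ends of miR-125b-2-3p and miR-99a-3p differed between the LPS libraries and the others in DC, in opposite directions. In miR-125b-2-3p the share of reads that end at base 20, counted from the main start, was 70.0% in KO and 71.2% in WT cells with LPS. It was 47.7% to 51.3% in the 4 other KO libraries and 44.6% to 49.4% in the 4 other WT libraries. The share that ends at base 22 was 5.1% in KO and 5.06% in WT cells with LPS, against 14.8% to 19.9% in the other 8. The LPS libraries held the shorter forms, and neither share overlapped with the other libraries.

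In miR-99a-3p the LPS libraries held the longer form. Its reads ended at base 23 in 70.4% of KO and 73.0% of WT reads with LPS, against 49.7% to 63.4% in the other 8 DC libraries, and at base 22 in 25.95% and 22.15%, against 36.1% to 47.6%. The mean end of miR-99a-3p was 22.64 in KO and 22.66 in WT cells with LPS and 22.44 to 22.63 in the others. That of miR-125b-2-3p was 20.34 in KO and 20.33 in WT cells with LPS and 20.64 to 20.75 in the others. miR-99a-5p and miR-125b-5p ended earlier with LPS by 0.055 and 0.053 nt on average. Reads of let-7c-3p ended at base 22 in 57.1% of KO and 76.7% of WT reads with LPS, on 84 and 43 reads, against 79.2% to 85.6% in the others.

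Earlier ends in both LPS libraries were common in DC. Of 222 arms with at least 50 reads in each DC library, 45% had a mean end that was earlier in both LPS libraries than in the other 8, and 2.25% (5 arms) had a later end. Read against this, the earlier ends of miR-125b-2-3p, miR-99a-5p and miR-125b-5p are near the background in direction, and the shift of miR-125b-2-3p ranked 39th of 222 in size. miR-99a-3p is among the 5 arms with a later end, and its shift of 0.122 nt ranked 113th of 222 in size. The shares of the 2 LPS libraries are given as values, with no test.

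**Figure D5:**
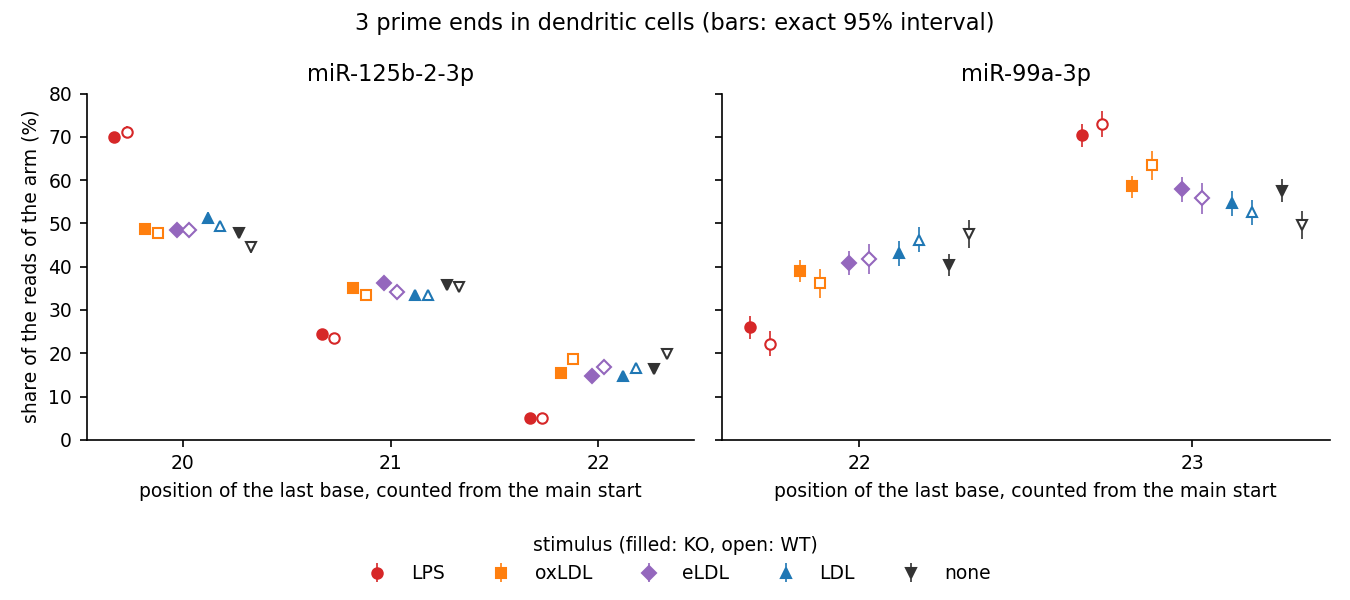
Share of the reads of miR-125b-2-3p and of miR-99a-3p that end at each base, counted from the main start, in the 10 DC libraries, with exact 95% counting intervals, KO filled and WT open. With LPS about 70% of miR-125b-2-3p ends at base 20 and 70.4% to 73.0% of miR-99a-3p at base 23, both above the other 8 libraries.

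Reads with bases added beyond the hairpin sequence were searched for separately and are not in the levels. Any read whose last bases differ from the hairpin counts here, so that substitutions at the end are included. Only the members were searched, and no share over all arms stands beside these values. An added A followed 14.2% to 15.6% of miR-99a-5p in DC and an added U 3.85% to 6.06%, while other added bases followed 0.521% to 0.752%. In miR-125b-2-3p the added base was mostly U, at 16.3% to 20.8%, with 1.06% to 2.2% for A. miR-99a-3p had 2.31% or less of each. In let-7c-3p, U followed 7.69% in KO and 18.9% in WT cells with LPS, on few reads, against 2.26% to 11.3% in the other 8. In miR-125b-5p both kinds stood higher with LPS, A at 5.04% in KO and 5.26% in WT cells against 3.64% to 4.58%, and U at 4.05% and 4.42% against 2.24% to 3.81%. The leading added base thus differed between the arms in DC. In MAC the shares rest on few reads. Other added bases followed 11.3% to 22.7% of miR-125b-5p there, against 1.15% to 1.65% in DC. For miR-99a-5p they followed 2.04% to 10.6% in MAC, against 0.521% to 0.752% in DC. For miR-125b-2-3p the MAC range of 0% to 23.8% overlapped with DC. The A and U shares of these arms overlapped between the cell types. Where these MAC reads came from was not tested.

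Within DC the levels of the members were correlated across libraries. After the mean of each genotype was subtracted, Pearson's r of log2(CPM + 1) between members over the 10 DC libraries ran from 0.58 (miR-99a-5p with let-7c-3p) to 0.90 (let-7c-3p with miR-125b-5p). All share the library and its scaling, and no p is given. Over all 20 libraries the nearest patterns to miR-99a-5p were miR-99a-3p, miR-125b-5p and miR-125b-2-3p (r 0.996, 0.994 and 0.986), and those to let-7c-3p were miR-222-5p, miR-27b-5p and miR-23b-3p (0.977, 0.968 and 0.966), values set mainly by the gap between the cell types. After the mean of each of the 4 cultures was subtracted, no member had another member among its 3 nearest. These values take in the 10 MAC libraries, where a member had at most 70 reads, so that counting error enters them. The nearest were miR-92a-1-5p to miR-99a-5p (0.675), miR-486-5p to miR-99a-3p (0.838), miR-30c-5p and miR-484-5p to let-7c-3p (0.916 each), miR-27a-5p to miR-125b-5p (0.66) and miR-99b-3p to miR-125b-2-3p (0.691).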

How the data were processed

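Each deposited file lists distinct tags with their read counts, as the authors deposited them. Per the submitters' processing notes CASAVA 1.8.2 was used, for a step they do not name. No source used here describes adapter trimming. The count of each tag of 18 to 26 nt was assigned by exact match to 1174 hairpins of GENCODE M21 (GRCm38). The loop in the structure from RNAfold 2.7.2 divided each hairpin into arms, starts had to lie within 2 nt of the main start, arms that share at least 50% of their reads were merged, and tags that fit several miRNAs were split equally. CPM scales these counts to 1e+06 assigned reads. Matched RefSeq sequences cover all 5 members.

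Tests used edgeR 4.0.16 in R 4.3.3 (TMM, robust quasi-likelihood F test, adjusted p under 0.05) on miRNAs that reached 5 CPM in 2 or more libraries. All 20 libraries entered 1 fit of culture and stimulus within cell type (8 residual degrees of freedom). The KO minus WT comparison of LPS added stimulus within genotype (4 degrees of freedom). With 1 library a condition, each library is assumed to vary like the others. The SE is the log2 change over the square root of F, and intervals use its t distribution. Shares have exact 95% intervals. The fit was tested on simulated data.

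The named miRNAs are the members, the arms of the related clusters and loci, and the 3 nearest patterns. The let-7 3p arms, the let-7c-1 variant, the mean ends over all arms and the correlations between members in DC were added after values were seen. The members and lists were chosen with earlier results of these data known. Alternatives were other scalings (total counts, upper quartile, RLE), DESeq2 1.42.0, other filters, 20 to 24 nt tags, tags of a single miRNA, any start, 1 cell type and leaving out each library.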

Additional observations from a re-analysis of the deposited data

Results flagged for a closer look

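For 4 results on members, a test of the difference between MAC and DC passed (edgeR, adjusted p under 0.05), and all rest on few MAC reads. The LPS effect on miR-99a-3p differed by 5.62 (log2, MAC minus DC, adjusted p 0.0080), with 9 and 0 reads in KO and WT MAC with LPS and 0 and 0 reads without stimulus. The KO effect on miR-99a-3p differed by 2.99 (adjusted p 0.0083), with 18 reads in KO and 1 in WT MAC. Both fitted values depend on how libraries with 0 reads are treated. The first call was lost without the KO MAC library with LPS or the unstimulated KO MAC library and with DESeq2, and the second without the KO or the WT MAC library with LPS.

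The effect of lipoproteins on miR-125b-5p differed by -1.0 (adjusted p 0.033), lower in MAC (-0.72 ± 0.21) and 0.28 ± 0.16 in DC, and the call was lost in 11 of 29 alternatives. The KO effect on miR-125b-5p differed by -0.69 (adjusted p 0.036), with -0.44 ± 0.18 in MAC and 0.26 ± 0.12 in DC, and the call was lost in 22 of 29 alternatives. MAC libraries held 19 to 70 reads of miR-125b-5p.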

How the results depend on the processing

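Of 1917 values of members under the alternatives, 1829 kept their call and direction or stayed without a call (in 73 of these the sign differed, without a call in either), 53 lost a call, 34 gained one and 1 turned round. The cell type differences of miR-99a-5p, miR-125b-5p and miR-125b-2-3p and the fall of let-7c-3p with LPS in DC were called in all alternatives run. Those of miR-99a-3p and let-7c-3p say nothing of stability, since both were tested only through their DC levels. The fall of let-7c-3p ranged from -3.30 to -2.54. The value that turned round was miR-99a-3p, LPS versus lipoproteins in MAC, at -1.20 without the KO MAC library with LPS, and leaving out 1 library gave -1.20 to 2.78 for it. Depth limits MAC, where 70 reads was the most of any member in a library. Conditions have 1 library each, and the matched pairs are part of the fit.

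The number of miRNAs called was within 1.5 times the number reported in 338 of 385 cases. With total counts, LPS versus none in DC had 151 calls (84 with TMM) and the LPS effect, MAC minus DC, 94 (47). DESeq2 gave 41 for the lipoprotein effect, MAC minus DC (26), and 51 for KO versus WT in DC (33). Lipoproteins versus none in DC (2) had 1 with total counts, RLE, the stricter filter or 20 to 24 nt tags, 0 with the upper quartile or any start, 7 with DESeq2 and 16 without a filter. LPS effect, KO minus WT (0) had 1 without a filter. The causes were not tested. Leaving out 1 library gave 53 to 92 calls for LPS versus none in DC, 26 to 55 for the LPS effect, MAC minus DC, 43 to 105 for LPS versus lipoproteins in DC, 0 to 4 for lipoproteins versus none in DC, 18 to 54 for lipoproteins versus none in MAC, 10 to 31 for the lipoprotein effect, MAC minus DC, 16 to 34 for KO versus WT in DC and 0 to 3 for LPS effect, KO minus WT. Shares of variants were not tested between the cell types, so their alternatives were not run.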
